A study of Mus musculus with 4 samples.

Results

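The genes of the voltage-gated calcium and sodium channels were followed in the mouse frontal brain after hypertension, stroke or both. Members were taken by gene symbol, as every alpha, beta and gamma subunit gene of these channels, the alpha-2-delta genes and the sodium leak channel gene *Nalcn*, which gave 41 of the 33981 genes in the deposited tables. All groups were male C57BL/6J mice aged 3 to 5 months, and each of the 4 groups had 6 libraries. Normotensive (NT) mice were infused with saline, whereas hypertensive (HT) mice were infused over 28 days with angiotensin II, the daily dose being 0.28 mg/kg. On day 7 a photothrombotic stroke, made by illuminating the prefrontal cortex after a light-sensitive dye, or a sham operation without illumination was performed, and brains were taken on day 28, giving NT + Sham and HT + Sham controls beside NT + Stroke and HT + Stroke mice. Poly(A) RNA came from a whole coronal section that included the prefrontal cortex, so each library can mix several regions and cell types. The labels do not say that the 6 libraries of a group came from separate animals, so p-values measure only the spread between these libraries, which may be technical.

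Voltage-gated sodium channels carry the upstroke of the action potential, and voltage-gated calcium channels turn it into transmitter release, dendritic signals and gene regulation. In both families a large alpha subunit forms the pore and senses voltage, while smaller partner subunits set how many channels reach the membrane and how they gate. Sodium channel beta subunits are also adhesion molecules, and calcium channel beta and alpha-2-delta subunits carry the pore to the surface. Most genes named as calcium channel gamma subunits encode transmembrane AMPA receptor regulatory proteins (TARPs), which bind glutamate receptors at excitatory synapses.

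Levels between genes were compared on the deposited FPKM values (read counts scaled to gene length and library size), and values of 1 gene between libraries on CPM, which are counts scaled to library size with TMM factors. Library totals ran from 15922919 to 24865998 counts with a median of 18497215.5. The pan-neuronal marker list, 12 genes such as *Snap25* and *Syt1*, was present in every group with no gene at 0. A group difference is given as a log2 fold change with its standard error (SE), and "edgeR adjusted p" is the Benjamini-Hochberg value of edgeR's quasi-likelihood test over all genes tested, called under 0.05. Of the 41 members, 38 had enough counts to be tested in at least 1 comparison, and *Scn4a*, *Scn11a* and *Cacng1* were tested in none.

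In NT + Sham the pore-forming genes were led by channels of central neurons. *Scn8a*, the main sodium channel of mature axon initial segments and nodes of Ranvier, stood at 15.3 ± 0.593 FPKM (SD, n = 6). *Scn2a*, found at axon initial segments of excitatory neurons, followed at 12.7 ± 1.56 FPKM (SD, n = 6), and *Scn1a*, the channel on which fast-spiking interneurons depend, at 6.81 ± 0.648 FPKM (SD, n = 6). Over the 6 libraries *Scn8a* made up a median of 40.2% of summed sodium channel alpha FPKM and *Scn2a* 32.9%, and the ranges of these shares did not meet. *Scn3a*, mainly a channel of the developing brain, was lower at 2.002 ± 0.215 FPKM (SD, n = 6). The genes best known from peripheral sensory neurons (*Scn9a*, *Scn10a*, *Scn11a*) and skeletal muscle (*Scn4a*) had mean levels of 0.255, 0.119, 0.0238 and 0.00246 FPKM.

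Among calcium channel pores the T-type genes, which open near the resting potential, were highest on the FPKM scale. *Cacna1i* stood at 13.7 ± 1.18, *Cacna1h* at 11.9 ± 1.08 and *Cacna1g* at 11.4 ± 0.696 FPKM (SD, n = 6), and each overlapped its neighbour within 1 SD. The genes of the presynaptic P/Q-type (*Cacna1a*), N-type (*Cacna1b*) and R-type (*Cacna1e*) channels had means of 9.66, 6.90 and 7.5 FPKM. This order depends on the gene length used for scaling, 25228 bases for *Cacna1e* and 9763 to 10137 for the T-type genes. Before scaling to length, *Cacna1e* had the highest mean of these pores, 191 CPM, with *Cacna1i* at 136 CPM. The neuronal L-type genes *Cacna1c* and *Cacna1d* were at 2.54 and 2.19 FPKM, and the L-type genes of muscle (*Cacna1s*) and retina (*Cacna1f*) at 0.130 and 0.0761 FPKM. Accessory subunits reached higher levels than any pore gene. The TARP gene *Cacng7* was at 181 ± 20.5 FPKM (SD, n = 6) and the calcium channel beta gene *Cacnb3* at 105 ± 4.25 FPKM (SD, n = 6).

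**Figure D1:**
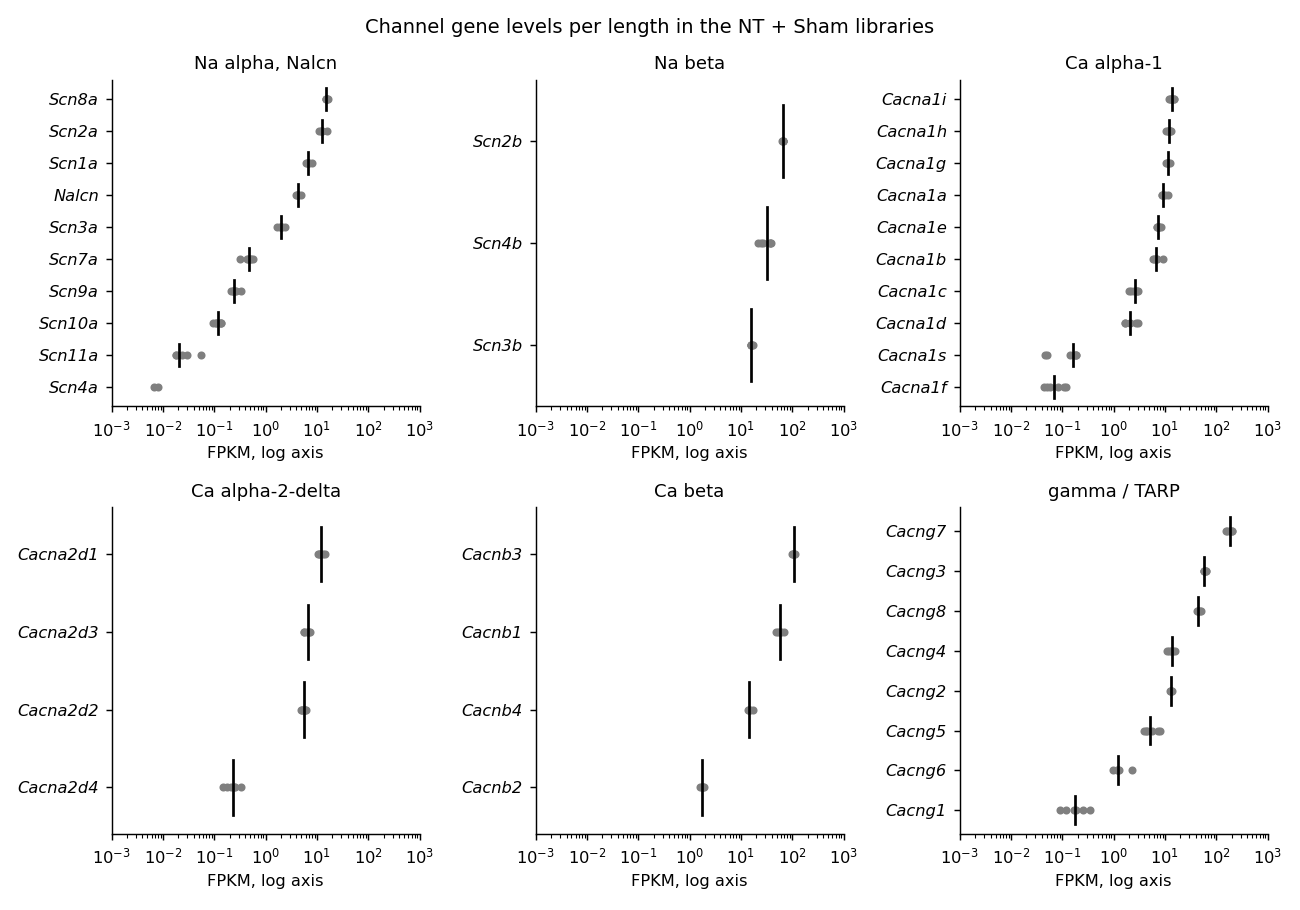
FPKM of channel genes in the 6 NT + Sham libraries, in 6 panels by family with a log axis; grey points are libraries and black lines are medians, and libraries at 0 are not drawn. Accessory genes such as Cacng7 and Cacnb3 lie above every pore-forming gene shown, of which Scn8a, Cacna1i and Scn2a are the highest.

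The first question was what stroke alone changed in normotensive brains. In NT + Stroke vs NT + Sham, 38 members were tested and 17 were called (44.7%), against 25.9% of all 16835 genes tested. Lower calls made up most of them, with 14 members lower against 11.5% of all genes, while 3 were higher against 14.4% of all genes. The median log2 fold change of the 38 was −0.129, beside −0.0114 for all genes tested. The 6 NT + Stroke libraries lay wholly below the 6 NT + Sham libraries in 6 members, *Scn8a*, *Scn2a*, *Scn1a*, *Cacna1e*, *Cacng2* and *Cacng3*, or 6 of the 38 tested, beside 6.83% of all genes with every stroke library below every sham library (14.3% in either direction). The split between directions moved with the scaling, from 17.6% of calls higher with TMM to 41.7% (5 higher, 7 lower) when counts were scaled by library size alone, which put the median of all genes at 0.0555. In bulk tissue, fewer cells of a type and less RNA per cell cannot be told apart.

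Among sodium channel pores, the 3 genes with the highest levels all fell after stroke in NT mice. *Scn8a* measured 234, 243 and 256 CPM (lowest, median and highest library) in NT + Sham and 165, 189 and 196 CPM in NT + Stroke. Every stroke library was below every sham library, and the change was −0.37 (SE 0.057, edgeR adjusted p = 8.72e-05), or 22.8% lower. *Scn2a* measured 148, 159 and 198 CPM in NT + Sham and 107.5, 116 and 130 CPM in NT + Stroke. It had the largest fall of the 3, −0.46 (SE 0.075, edgeR adjusted p = 0.000178), or 27.3% lower, again without overlap. *Scn1a* measured 71.4, 75.6 and 88.8 CPM in NT + Sham and 58.5, 60.8 and 66.9 CPM in NT + Stroke. Its groups also stood apart, with a change of −0.29 (SE 0.064, edgeR adjusted p = 0.00228). The summed FPKM of all 10 sodium channel alpha genes ran from 35.8 to 44.0 in NT + Sham and from 29.6 to 33.3 in NT + Stroke, so these ranges did not meet, while the share held by *Scn8a* had a median of 40.2% in NT + Sham and 39.5% in NT + Stroke.

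The remaining sodium channel pores had estimates on both sides of 0. *Scn7a*, which encodes a sodium-sensing relative of these channels rather than a voltage-gated one, fell from 2.38, 3.48 and 4.15 CPM in NT + Sham to 1.61, 2.18 and 3.19 CPM in NT + Stroke. It rested on 26 to 79 counts per library, and its change was −0.56 (SE 0.183, edgeR adjusted p = 0.0303). *Scn3a* and *Scn9a* did not pass the test, at +0.06 (95% interval −0.118 to 0.243) and −0.02 (95% interval −0.334 to 0.293). *Scn10a* had the lowest estimate of all tested members, −0.59, on 5 to 22 counts per library, and also missed (edgeR adjusted p = 0.197).

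**Figure D2:**
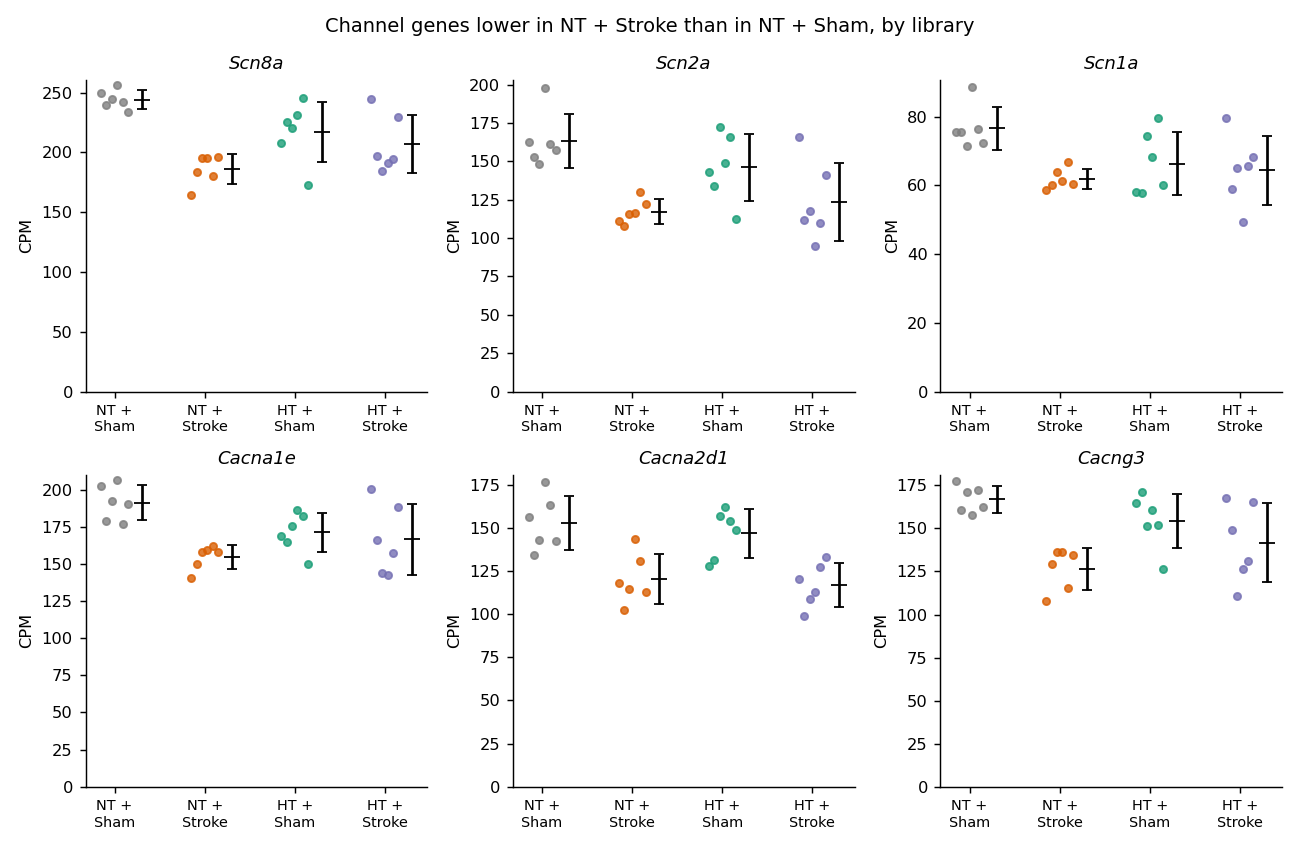
CPM of 6 channel genes in the 24 libraries by group; points are libraries, and bars are the mean ± SD of 6 libraries. Scn8a, Scn2a, Scn1a, Cacna1e and Cacng3 show no overlap between NT + Sham and NT + Stroke, Cacna2d1 shows 1 stroke library within the sham range, and the HT groups overlap in all 6.

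Sequence upstream of genes that fell is shown for 3 of them whose RefSeq start lies at the start of the annotated gene. Each run is the 250 bases before the RefSeq transcript start on GRCm38.p6, written 5′ to 3′ on the gene's own strand, and capitals mark matches to the GC box GGGCGG on either strand. *Scn2a* (chr2:65620519-65620768, plus strand) and *Scn1a* (chr2:66440838-66441087, minus strand) belong to the sodium channel gene cluster of chromosome 2, and *Cacna2d1* (chr5:15934441-15934690, plus strand) encodes the alpha-2-delta protein that binds gabapentin.
Scn2a: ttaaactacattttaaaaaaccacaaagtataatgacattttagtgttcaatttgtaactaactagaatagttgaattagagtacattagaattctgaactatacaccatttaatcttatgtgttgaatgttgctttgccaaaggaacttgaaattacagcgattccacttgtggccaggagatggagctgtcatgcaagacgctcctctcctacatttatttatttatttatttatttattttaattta
Scn1a: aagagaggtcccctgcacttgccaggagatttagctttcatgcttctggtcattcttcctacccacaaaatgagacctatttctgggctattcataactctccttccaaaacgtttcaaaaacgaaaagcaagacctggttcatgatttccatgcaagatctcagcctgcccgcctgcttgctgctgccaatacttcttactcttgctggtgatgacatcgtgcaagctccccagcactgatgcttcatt
Cacna2d1: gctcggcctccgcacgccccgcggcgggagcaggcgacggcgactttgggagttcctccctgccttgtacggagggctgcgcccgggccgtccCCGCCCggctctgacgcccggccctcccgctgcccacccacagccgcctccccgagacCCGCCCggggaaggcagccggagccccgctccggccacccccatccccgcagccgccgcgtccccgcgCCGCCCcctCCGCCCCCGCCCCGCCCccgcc
The 3 windows differ in composition, with 29.6% G or C in *Scn2a*, 46.8% in *Scn1a* and 82.4% in *Cacna2d1*, although all 3 genes fell after stroke in NT mice. The *Cacna2d1* window held 6 GC-box matches, some of which adjoin one another, and the other two held 0. Of the 41 members, 31 had at least 1 RefSeq promoter window, some of them several, and a gene was counted where any of its windows held the letters. GGGCGG occurred in 15 of the 31 genes (48.4%), against 35.4% of 27025 genes. The TATA-box letters TATAAA were found in 2 of the 31 genes (6.45%), against 14.3% of all genes, and in *Scn2a* the match lies in a window other than the one printed. TGACGT (the core of the cAMP response element) was found in 1 (3.23%), against 7.29%, and CACGTG (an E-box) in 0, against 6.86%. These are matches of letters on both strands and not sites shown to be used.

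The sodium channel beta gene *Scn2b* and the leak channel gene *Nalcn* were both lower in NT + Stroke. *Scn2b* fell by 0.19 on the log2 scale (edgeR adjusted p = 0.0312). *Scn3b*, at −0.12, did not pass (edgeR adjusted p = 0.108). *Scn4b*, which supplies the blocking particle of resurgent sodium current and is abundant in striatal neurons, went from 106, 159.6 and 195 CPM to 87.8, 252 and 349 CPM. Its NT + Stroke group held both a library below and 5 libraries above the whole sham range, and +0.66 (SE 0.293) did not pass (edgeR adjusted p = 0.134). *Nalcn*, a voltage-independent sodium leak channel that sets resting excitability, fell by 0.22 (SE 0.070, edgeR adjusted p = 0.0244), with 5 of 6 stroke libraries below every sham library.

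Of the 10 calcium channel pores, 3 were called, all lower, beside 25.9% of all genes called in either direction and 11.5% called lower. The 10 estimates had a median of −0.0175, with 5 below 0 and 5 above. The 3 called were the high-voltage-activated R, N and P/Q types. *Cacna1e*, the R-type channel, measured 177, 191 and 207 CPM in NT + Sham and 141, 158 and 162 CPM in NT + Stroke. The groups did not overlap, and the change was −0.29 (SE 0.059, edgeR adjusted p = 0.0013). *Cacna1b*, the N-type channel, measured 60.2, 67.3 and 88.6 CPM and then 52.1, 55.0 and 63.2 CPM, with 4 stroke libraries below all sham libraries and a change of −0.27 (SE 0.088, edgeR adjusted p = 0.0326). *Cacna1a*, the P/Q-type channel, fell by 0.21 (edgeR adjusted p = 0.0254). The other 7 pore genes, of the L and T types, were not called. Their estimates ran from −0.13 in *Cacna1f* to +0.49 in *Cacna1s*, both on at most 50 counts in any library. *Cacna1h* was the closest to the threshold of the T-type genes, at +0.16 (95% interval 0.023 to 0.295, edgeR adjusted p = 0.105).

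The accessory calcium channel genes moved in both directions. *Cacna2d1* measured 134, 149.7 and 177 CPM in NT + Sham and 102, 116 and 144 CPM in NT + Stroke. It fell with 5 of 6 stroke libraries below every sham library, by 0.32 (SE 0.086, edgeR adjusted p = 0.0097). *Cacna2d4*, a subunit known from the retina, rose from 1.43, 2.22 and 3.08 CPM to 1.98, 3.46 and 4.16 CPM, with 4 stroke libraries above every sham library (+0.62, SE 0.208, edgeR adjusted p = 0.0336). It rested on 26 to 89 counts per library. *Cacna2d2*, the other gabapentin-binding alpha-2-delta protein, was at +0.26 and missed narrowly (edgeR adjusted p = 0.0523), and *Cacna2d3* was at −0.05 (95% interval −0.311 to 0.221). All 4 beta genes, which chaperone the pore to the membrane, had estimates below 0, from −0.25 to −0.11, and of these *Cacnb1* was called (edgeR adjusted p = 0.0492). The medians of the shares within the alpha-2-delta family followed these directions, with *Cacna2d1* holding a median of 49.3% of summed family FPKM in NT + Sham and 42.1% in NT + Stroke, and *Cacna2d2* 23.1% and 29.8%.

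TARP genes moved in both directions as well. *Cacng3*, a TARP of cortical excitatory synapses, measured 158, 167 and 178 CPM in NT + Sham and 108, 132 and 136 CPM in NT + Stroke. It fell without overlap, by 0.38 (SE 0.064, edgeR adjusted p = 0.000252), or 23.1%. *Cacng2* (stargazin), the first TARP to be described, fell by 0.22 (SE 0.049, edgeR adjusted p = 0.00278), also without overlap, from 67.6 to 77.0 CPM down to 58.7 to 65.0 CPM. *Cacng4* rose from 38.8, 48.1 and 56.3 CPM to 53.6, 60.2 and 62.7 CPM. In 5 of 6 stroke libraries it was above every sham library, and the change was +0.33 (SE 0.074, edgeR adjusted p = 0.00282). *Cacng5*, its neighbour on chromosome 11, had the largest estimate of all tested members, +0.93 (SE 0.320), but ran from 23.5 to 65.0 CPM within NT + Stroke and did not pass (edgeR adjusted p = 0.0565). *Cacng6*, *Cacng7* and *Cacng8* were at +0.01, −0.02 and −0.18, and none was called.

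**Figure D3:**
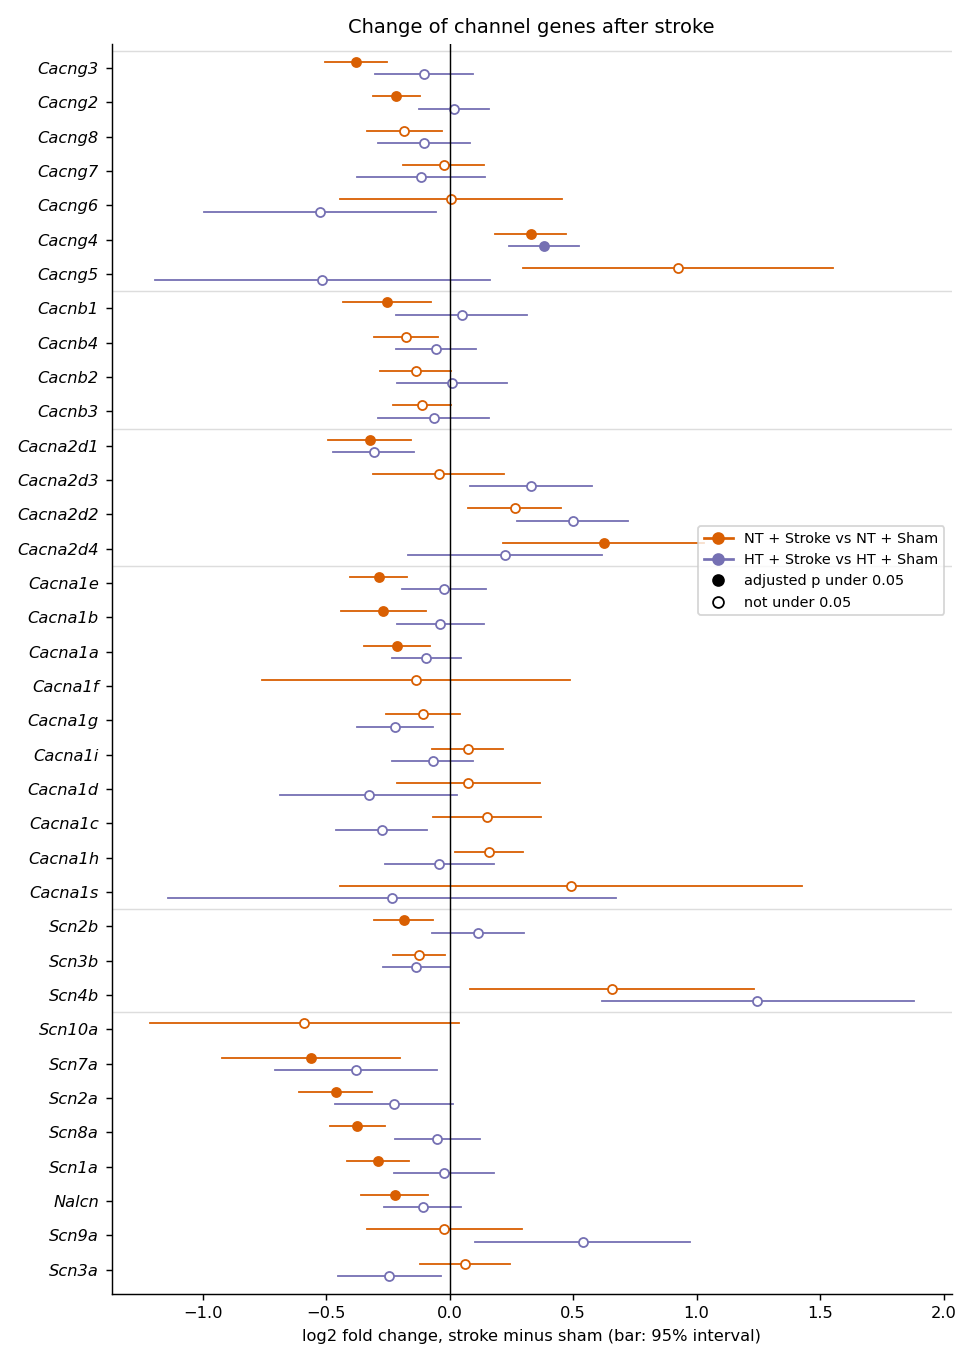
Log2 fold change of stroke against sham for tested channel genes, by family, in NT mice (orange) and HT mice (purple); bars are 95% intervals and filled points have an edgeR adjusted p under 0.05. Of the genes shown, 15 of 36 are filled in NT mice, 13 of them below 0, and 1 of 34 in HT mice, Cacng4.

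Markers of several cell types also differed between NT + Stroke and NT + Sham. The 12 pan-neuronal markers had 6 lower and 0 higher calls in NT + Stroke vs NT + Sham (median −0.269), and their summed CPM ran from 10830 to 11870 in NT + Sham and from 8302 to 9705 in NT + Stroke. The 6 excitatory cortical markers were all lower (median −0.534), with sums of 7832 to 9077 and 5305 to 6761 CPM. Both sets of ranges were apart, as they were for *Scn8a*, *Scn2a* and *Cacng3*. Of 7 inhibitory neuron markers 2 rose and 2 fell. Markers of microglia and macrophages rose in 7 of 8, of astrocytes in 6 of 6, of oligodendrocytes in 3 of 6, of their precursors in 1 of 5, of fibroblasts in 5 of 5, of endothelium in 2 of 6, of mural cells in 2 of 6 tested and of choroid plexus in 1 of 3 tested, with 0 falling in each of these 8 lists. Of 5 blood markers 0 were called. None of these lists had a gene at 0 throughout a group. The part of these shifts in the channel results was not tested.

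Markers of neighbouring regions also varied between libraries. The summed CPM of 8 striatal markers, among them *Drd1* and *Adora2a*, ran from 369 to 1692 in NT + Sham and from 478 to 2197 in NT + Stroke, with 0 of the 8 called. The sum of 5 olfactory bulb markers ran from 52.9 to 119.8 CPM in NT + Sham and from 82.2 to 317 CPM in NT + Stroke, with 3 of 5 called higher. The library lowest for *Scn4b* was the library lowest for striatal markers in 4 of 4 groups, and the highest was shared in 3 of 4. *Cacng4* shared its lowest and its highest library with the striatal sum in 3 of 4 groups each. *Cacng5* shared its highest with the olfactory bulb sum in 3 of 4 and its lowest in 1 of 4. *Scn8a* and *Scn2a* shared the lowest library with the striatal sum in 1 of 4 groups each, and the highest in 1 and 0. With the pan-neuronal sum, *Scn8a* shared its lowest library in 3 of 4 groups, *Cacng3* in 4 of 4 and *Scn2a* in 1 of 4. The highest library was shared with that sum in 1, 2 and 1 of 4 groups. *Cacng2*, which fell, shared both ends with the striatal sum in 3 of 4 groups, as *Cacng4* did, and *Cacna2d3* shared the lowest in 3 and the highest in 4. *Cacna1i*, which was not called, shared its lowest library with the olfactory bulb sum in 3 groups and its highest in 4. The genes named were picked from 38 members, and some matches of this kind arise by chance.

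With the striatal and olfactory bulb scores added as covariates, 0 of 38 members were called in NT + Stroke vs NT + Sham, and 710 genes of all were called in place of 4365. The estimates of all 17 members kept their sign in that fit. *Scn2a* kept most of its size at −0.36 (edgeR adjusted p = 0.11), *Scn8a* was at −0.18 (edgeR adjusted p = 0.374) and *Cacng4* at +0.13 (edgeR adjusted p = 0.662). Without the covariates, *Scn8a*, *Scn2a*, *Scn1a*, *Cacna1e*, *Cacna2d1*, *Cacng2*, *Cacng3* and *Cacng4* stayed called when any 1 of the 12 libraries was left out, whereas *Scn7a*, *Scn2b*, *Nalcn*, *Cacna1a*, *Cacna1b*, *Cacna2d4* and *Cacnb1* each lost the call without 5 to 9 of the libraries. Leaving out NT + Sham library 2 lowered the count of called members from 17 to 10, and leaving out NT + Stroke library 1 lowered it to 11.

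**Figure D4:**
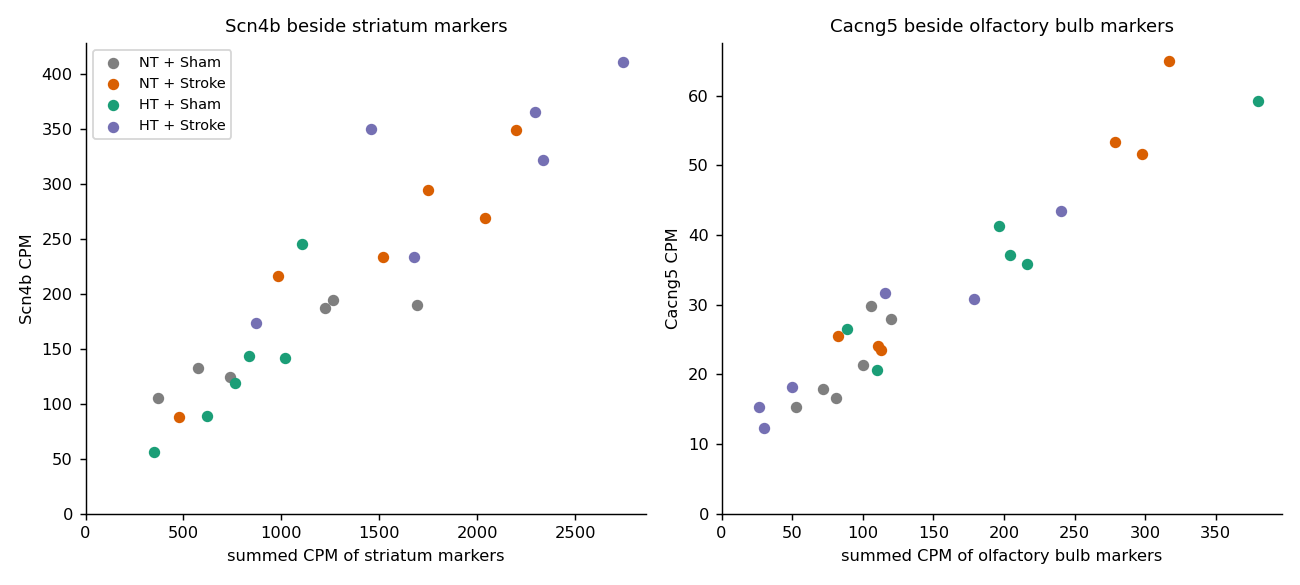
CPM of Scn4b against the summed CPM of 8 striatal markers, and CPM of Cacng5 against the summed CPM of 5 olfactory bulb markers, each point 1 of 24 libraries coloured by group. In each group the library lowest in Scn4b is also lowest in striatal markers, and in 3 of 4 groups the library highest in Cacng5 is highest in olfactory bulb markers. The highest library is shared in 3 of 4 groups for Scn4b, and the lowest in 1 of 4 for Cacng5.

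The second question was what stroke changed in mice that were already hypertensive. In HT + Stroke vs HT + Sham 36 members were tested and 1 was called (2.78%), against 0.645% of 16741 genes. The count was 5 with DESeq2 and 5 in the fit of all 4 groups, each with 4 higher and 1 lower, where 907 and 1125 genes of all were called. By edgeR within the HT groups, that member was higher, beside 0.544% of all genes called higher, and 0 members were lower, beside 0.102% of all genes. It was *Cacng4*, at 46.0, 52.2 and 55.0 CPM in HT + Sham and 59.9, 66.0 and 76.2 CPM in HT + Stroke. All 6 stroke libraries lay above all 6 sham libraries, which held for 0.591% of all genes (1.15% when separation in either direction is counted), and the change was +0.38 (SE 0.072, edgeR adjusted p = 0.0282). The call was lost when HT + Sham library 1, 2, 3 or 4 or HT + Stroke library 2 or 4 was left out, with edgeR adjusted p between 0.019 and 0.0976 over the 12 fits, and with the region scores as covariates (+0.33, edgeR adjusted p = 0.415).

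At an unadjusted p under 0.05, 12 of 36 members passed (33.3%), against 17% of all genes, with 6 higher and 6 lower. *Cacna2d2* measured 35.7, 42.6 and 52.7 CPM in HT + Sham and 45.0, 63.5 and 68.2 CPM in HT + Stroke, with 4 of 6 above all sham libraries (+0.50, SE 0.115, edgeR adjusted p = 0.0582). *Scn4b* was at +1.25 (SE 0.322, edgeR adjusted p = 0.0933). The estimates of both genes were above those in NT mice, and neither passed the adjusted test. *Cacna2d3* and *Scn9a* were also on the higher side. On the lower side, *Cacna2d1* was at −0.31 (SE 0.084, edgeR adjusted p = 0.0906), with 5 of 6 stroke libraries below all sham libraries, and the rest were *Cacna1c*, *Cacna1g*, *Scn3a*, *Scn7a* and *Cacng6*. In the same comparison 4 of 6 oligodendrocyte markers rose and the other marker lists had 0 called, while the striatal sum ran from 350 to 1107 CPM in HT + Sham and from 868 to 2744 CPM in HT + Stroke. All 9 calcium channel pore genes that were tested had an estimate below 0 (median −0.0944, beside 0.000689 for all genes tested). Of these pore genes 0 were called, beside 0.645% of all genes, so the count does not set them apart.

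**Figure D5:**
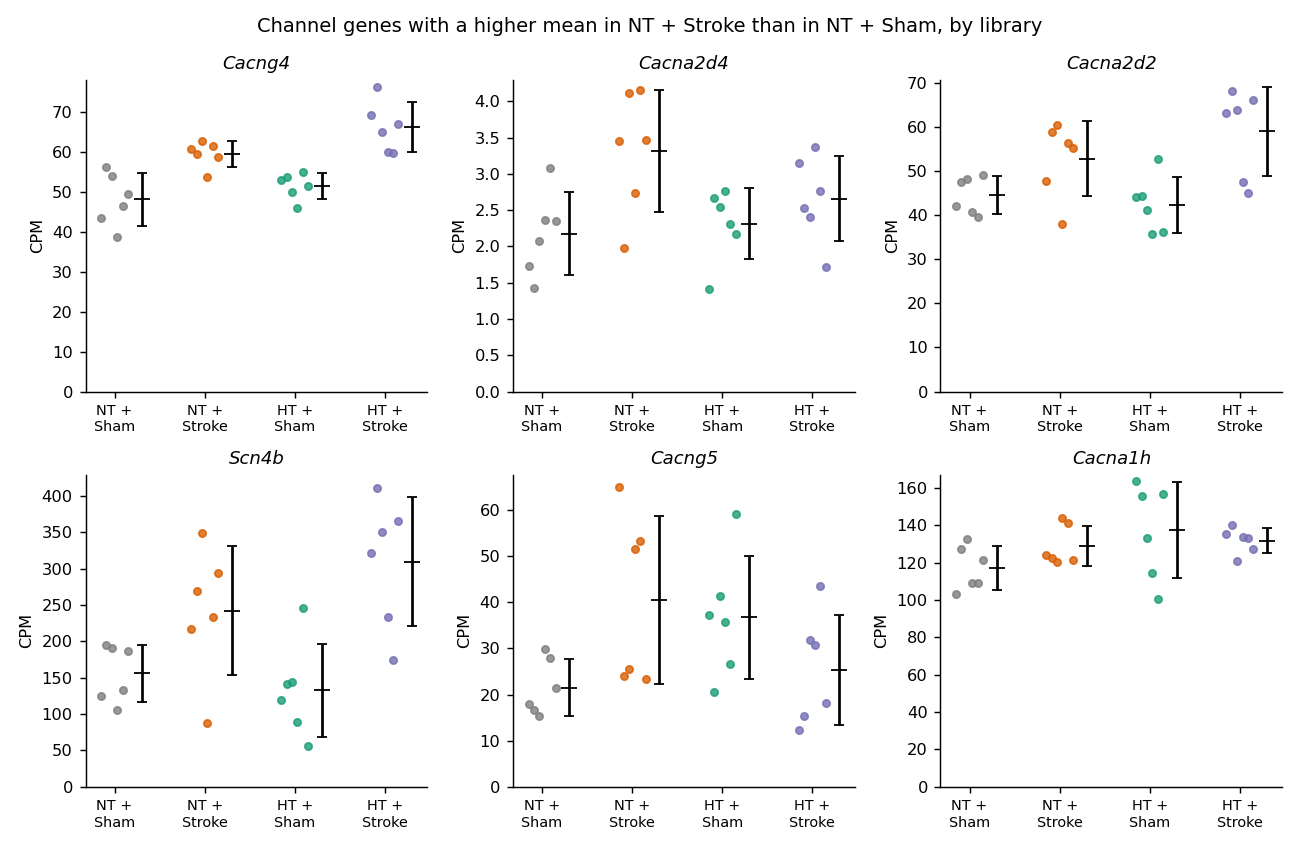
CPM of 6 channel genes in the 24 libraries by group; points are libraries, and bars are the mean ± SD of 6 libraries. Cacng4 is higher in all 6 HT + Stroke libraries than in any HT + Sham library, and the other 5 genes overlap between stroke and sham in NT and in HT mice.

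The genes that stood apart in NT mice overlapped in HT mice. *Scn8a* measured 173, 223 and 245 CPM in HT + Sham and 185, 195.5 and 245 CPM in HT + Stroke, a change of −0.05 (95% interval −0.223 to 0.123). *Scn2a* measured 112.5, 146 and 172.5 CPM in HT + Sham and 95.1, 115 and 166 CPM in HT + Stroke, a change of −0.22 (95% interval −0.463 to 0.013). *Cacng3* was at −0.10 (95% interval −0.301 to 0.093). The ranges within the HT groups were wide, and some of their ends fell in libraries at the ends of marker levels. HT + Sham library 6 was lowest of its group in *Scn8a*, *Scn2a*, *Cacna1e* and *Cacng3*, and in pan-neuronal, excitatory and striatal markers. It was highest in astrocyte markers (1206 CPM, the others 724 to 783) and fibroblast markers (188 CPM, the others 44.2 to 82.8). It was also highest in microglia and macrophage markers (297 CPM, the others 229 to 248) and olfactory bulb markers (379 CPM, the others 88.9 to 217). HT + Stroke library 1 was highest of its group in *Scn8a*, *Scn2a*, *Scn1a*, *Cacna1e* and *Cacng3*, highest in pan-neuronal markers and lowest in fibroblast markers. The opposite ends did not all fall together. In HT + Sham the highest library was 5 for *Scn8a* and *Scn1a* and 3 for *Scn2a*, and 4 for pan-neuronal markers. In HT + Stroke the lowest library was 4 for *Scn2a*, *Scn1a* and *Cacna1e*, and 3 for pan-neuronal markers. HT + Stroke library 6 was, with library 1, low in the markers of other cells. Astrocyte markers summed to 742 CPM in library 6 and 778 CPM in library 1, against 1485 to 2116 CPM in the other 4 HT + Stroke libraries, and microglia and macrophage markers to 251 and 266 CPM, against 366 to 557 CPM. Fibroblast markers summed to 75.2 and 70.1 CPM, against 144 to 846 CPM. Both libraries lay within the HT + Sham range for these 3 lists. For microglia and macrophages the top of that range was HT + Sham library 6 alone, and both stroke libraries lay above every other HT + Sham library. Their part in the HT comparison was not tested beyond leaving each out. Without HT + Sham library 6 the count of called members was 1, without HT + Stroke library 1 it was 2, and without HT + Stroke library 6 it was 1.

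NT + Stroke vs NT + Sham and HT + Stroke vs HT + Sham share no library, so their estimates can be set side by side. Of 36 members tested in both, 21 had the same sign, 16 below 0 and 5 above, and 15 had opposite signs. All 17 members called in NT mice were tested in HT mice, where 13 kept the sign and 11 of those were smaller. The 14 lower calls had a median of −0.278 in NT mice and −0.044 in HT mice, and 10 of them were below 0 in HT mice. These members were picked by passing the NT test, which favours large NT estimates. Their medians and sizes therefore cannot show a smaller effect in HT mice. Over all members tested, the median was −0.129 in NT mice (38 members) and −0.0605 in HT mice (36 members). The test of the difference itself is the interaction over all 24 libraries, in which 0 of 38 members were called, beside 0 of 17608 genes (0%) in all. By DESeq2 22 genes were called, 0 of them members.

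At an unadjusted p under 0.05, 10 of 38 members passed the interaction test (26.3%), against 10.4% of all genes. In 7 the log2 fold change of stroke was higher in HT than in NT mice, among them *Scn8a*, *Scn2b*, *Scn1a*, *Cacna1e*, *Cacng2* and *Cacng3*, and in *Cacng5*, *Cacna1c* and *Scn3a* it was lower. *Scn8a* had an interaction of +0.32 (SE 0.104, edgeR adjusted p = 0.322) and *Scn2b* of +0.29 (SE 0.113, edgeR adjusted p = 0.381). *Cacng5* had the largest, −1.45 (SE 0.480, edgeR adjusted p = 0.322). Its highest library was the one with the highest olfactory bulb sum in 3 of 4 groups, and its lowest the one with the lowest sum in 1 of 4. The median interaction of the members was 0.127, with 26 above 0 and 12 below, beside 0.00333 for all genes. None of these differences passed the adjusted test.

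The third question was what both conditions together changed against neither. HT + Stroke vs NT + Sham shares the NT + Sham libraries with the first comparison and is not independent of it. Of 37 members tested 10 were called (27%), against 14.7% of 16749 genes, with 4 higher against 8.38% of all genes and 6 lower against 6.37%. Among the higher members were *Cacng4* (+0.49, edgeR adjusted p = 0.00836), *Scn4b* (+1.02, edgeR adjusted p = 0.0131) and *Cacna2d2* (+0.43, edgeR adjusted p = 0.0148). *Scn4b* ran from 174 to 411 CPM in HT + Stroke against 106 to 195 CPM in NT + Sham, with 5 of 6 above every NT + Sham library. In the same groups the striatal sum ran from 868 to 2744 and from 369 to 1692 CPM.

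The lower members of that comparison were *Cacna2d1* (−0.36, edgeR adjusted p = 0.0143), *Nalcn* (−0.25, edgeR adjusted p = 0.0332), *Scn2a* (−0.38, edgeR adjusted p = 0.0335), *Scn7a* (−0.60, edgeR adjusted p = 0.0338), *Scn8a* (−0.21, edgeR adjusted p = 0.0459) and *Scn10a* (−0.96, edgeR adjusted p = 0.0491). *Scn10a*, a channel of pain-sensing neurons, was at 16 to 22 counts per library in NT + Sham and 3 to 12 in HT + Stroke. Groups did not overlap in 3 members, *Cacng4*, *Cacna2d1* and *Scn10a*, beside 6.17% of all genes. *Cacng4*, *Scn4b*, *Cacna2d2* and *Cacna2d1* stayed called without any 1 of the 12 libraries, the other 5 lower members lost the call without 7 to 11 of them, and 0 members were called with the region scores as covariates.

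Neither comparison of HT with NT mice gave a call. In HT + Sham vs NT + Sham 0 of 37 members passed, beside 0% of 16581 genes, and in HT + Stroke vs NT + Stroke 0 of 37, beside 0% of 17008 genes. DESeq2 also called 0 members in either. *Cacna1f* had too few counts for the edgeR test in HT + Sham vs NT + Sham, at 4 to 9 per HT + Sham library and 7 to 20 per NT + Sham library. The paper, by its own test, reports differentially expressed genes in both comparisons and places *Cacna1f* among the lower genes of the first. At an unadjusted p under 0.05 the first had 8 members (21.6%, 3 higher and 5 lower), against 8.03% of all genes, and the second 4 (10.8%, 3 higher and 1 lower), against 7.23%. The 3 higher in HT + Sham were *Cacng5* (+0.78), *Cacna1c* (+0.22) and *Cacna1h* (+0.24), and the 5 lower were *Scn10a*, *Scn1a*, *Cacna2d3*, *Cacna1e* and *Scn8a*. *Scn8a* was at −0.16 (95% interval −0.307 to −0.021, edgeR adjusted p = 0.595), with 5 of 6 HT + Sham libraries below every NT + Sham library. In HT + Stroke vs NT + Stroke they included *Scn2b* (+0.18), *Cacng4* (+0.15) and *Cacna1c* (−0.22).

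Genes of proteins that bind these channels were counted in the same tests, which measured RNA and not protein. Of 11 sodium channel partners 4 fell after stroke in NT mice and 0 rose, namely *Fgf13*, *Fgf14*, *Ank2* and *Nrcam*. *Fgf13*, an intracellular fibroblast growth factor relative that binds the channel's tail, had the largest change, −0.34 (SE 0.078, edgeR adjusted p = 0.00369). Of 3 partners of the NALCN leak channel *Unc80* fell (−0.23, edgeR adjusted p = 0.0383). Calcium channel partners split, with 4 of 15 higher and 7 lower. *Gem* and *Rrad*, small GTPases that inhibit calcium channels, were higher by 1.27 (SE 0.288, edgeR adjusted p = 0.00305) and 1.12 (SE 0.182, edgeR adjusted p = 0.000164), and *Stac* and *Cachd1* also rose. *Rims1*, an active-zone protein that holds calcium channels at release sites, fell by 0.48 (SE 0.070, edgeR adjusted p = 5.66e-05), and *Rims2*, *Rimbp2* and *Cabp1* were among the others that fell. Of 7 AMPA receptor genes and partners 3 fell, namely *Gria3* (−0.44, edgeR adjusted p = 0.000548), *Gria2* and *Cnih3*. For scale, stroke in NT mice gave lower calls in 11.5% of all genes and higher calls in 14.4%. In HT + Stroke vs HT + Sham 0 genes of these 4 lists were called, beside 0.645% of all genes. That count therefore does not set the partners apart, nor does it show a response lost in HT mice.

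Several members lie in clusters, and neighbours did not all move alike. On chromosome 2, *Scn3a*, *Scn2a*, *Scn1a*, *Scn9a* and *Scn7a* lie between 65457118 and 66784914 on GRCm38. Of these 5, *Scn2a*, *Scn1a* and *Scn7a* fell after stroke in NT mice and *Scn3a* and *Scn9a* were not called. On chromosome 11, *Cacng1*, *Cacng4* and *Cacng5* lie between 107703218 and 107915055, and of them *Cacng4* was called. On chromosome 7, *Cacng7*, *Cacng8* and *Cacng6* lie between 3332955 and 3435667, and 0 of them were called. *Scn2b* and *Scn4b*, between 45117782 and 45154152 on chromosome 9, had estimates of opposite sign, −0.19 and +0.66. Members whose genes span over 100 kb had 10 of 21 tested lower and 1 higher in that comparison (median −0.213), and those up to 100 kb had 4 of 17 lower and 2 higher (median −0.108). Of all genes tested, 22% of the 2305 that span over 100 kb were lower and 13.4% higher, and 9.86% of the 14530 others were lower and 14.6% higher.

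The 3 members that were never tested sat near 0. *Scn11a* had at most 7 counts in any library. *Scn4a*, the skeletal muscle sodium channel, had at most 2 counts in every library but HT + Stroke library 6, which had 10. *Cacng1*, the skeletal muscle calcium channel gamma subunit, had 21 counts in that same library and at most 11 in any other. The summed CPM of 6 skeletal muscle markers was 208 there and at most 22.3 in any other library. Of that list 3 genes had enough counts to be tested in NT + Stroke vs NT + Sham, with 1 lower and 0 higher.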

How the data were processed

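The authors deposited 4 tables of counts per gene, not normalized, and FPKM values normalized to gene length and library size. The submitters' processing notes name featureCounts 1.5.0-p3 and DESeq2 1.20.0, while the methods give another DESeq version. The aligner, build and strand setting are not given in the sources used here, and the positions of all 41 members match GENCODE M21 on GRCm38. Tables were joined by gene ID, and 48 columns of normalized counts, 8 of group means and the authors' fold changes and p-values were not used. A gene missing from a table was set to 0 counts for the libraries that no other table covers.

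Counts were tested in R 4.3.3 with edgeR 4.0.16, filtered by filterByExpr (minimum count 10, minimum total 15), scaled by TMM and tested two-sided over the libraries compared, or all 24 for the interaction. Benjamini-Hochberg adjustment ran over all genes tested. Alternatives used DESeq2 1.42.0 and limma 3.58.1. The scripts were tested on simulated data. Libraries of 1 group differed by more than sampling noise (chi-square per degree of freedom 5.07 to 48.66 over 60 pairs). No batch is given in the labels. Depth limits the genes with few counts, and intervals cover the spread between libraries. The SE was derived from the log2 fold change and its test statistic. Each 95% interval is the log2 fold change ± 1.96 SE, which is somewhat narrow for 6 libraries per group.

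The members, the marker and partner lists and the tests were chosen with earlier results of these data known. Some items are not reported here. Other members are given with full statistics for at most the 12 of largest change among those called in each stroke comparison. The labels and the methods place the illumination at different distances from bregma.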

Additional observations from a re-analysis of the deposited data

Results flagged for a closer look

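Of 152 combinations of a tested member and a group, 12 had a highest or lowest library whose gap to the nearest other library exceeded Dixon's 95% critical value for 6 libraries, which chance passes in about 1 in 20. In all 12 the library was the highest of its group. NT + Sham library 4 stood apart in 4 of them, at 198 CPM for *Scn2a* (the other 5 libraries 148 to 163), 88.78 CPM for *Scn1a* (71.4 to 76.4), 88.62 CPM for *Cacna1b* (60.2 to 68.2) and 150.5 CPM for *Cacnb4* (125.7 to 134). NT + Stroke library 5 was at 105.1 CPM for *Cacna1a* (90.2 to 95.1) and 33.09 CPM for *Scn3a* (23.3 to 25.5), and NT + Stroke library 4 at 455.9 CPM for *Cacnb3* (365 to 388) and 4.368 CPM for *Cacng6* (1.92 to 2.63). *Cacng6* was also high in NT + Sham library 2, at 4.523 CPM (1.962 to 2.554). *Scn2b* reached 320.3 CPM in NT + Sham library 1 (306 to 309.8). *Scn9a* was at 4.604 CPM in NT + Stroke library 3 (2.63 to 3.15) and at 7.371 CPM in HT + Stroke library 3 (3.092 to 4.003). *Scn2a* and *Scn1a* stayed called in NT + Stroke vs NT + Sham without NT + Sham library 4, and *Cacna1b* did not.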

How the results depend on the processing

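In NT + Stroke vs NT + Sham, 17 members were called. The count was 11 and 10 with limma on log2(FPKM + 1) and log2(FPKM + 0.1), 0 with the region scores as covariates, and 10 to 16 when 1 library was left out. DESeq2, library size alone, upper-quartile scaling, both other count filters, an unadjusted p and the fit of all 4 groups gave between 12 and 24. In HT + Stroke vs HT + Sham, 1 member was called, against 5 with DESeq2, 2 with every gene of at least 1 count, 12 at an unadjusted p, 5 in the fit of all 4 groups, 0 with the region scores, and 0 to 3 when 1 library was left out (3 without HT + Sham library 5 or HT + Stroke library 5). In HT + Stroke vs NT + Sham, 10 members were called, against 6 with limma on either FPKM scale, 16 at an unadjusted p, 0 with the region scores, and 5 to 10 when 1 library was left out (5 or 6 without NT + Sham library 1, 2, 4, 5 or 6 or HT + Stroke library 2 or 4). At an unadjusted p, the count of 0 became 8 in HT + Sham vs NT + Sham, 4 in HT + Stroke vs NT + Stroke and 10 in the interaction, and it was 0 in every other alternative run for these 3. Of 643 values of single called genes under the alternatives, 456 kept direction and call, 187 lost the call and 0 changed sign. The cause of these shifts was not tested.

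Library numbers were examined as a pairing of the groups. Correlations of same-numbered deviations ran from −0.38 to 0.258, and 14 of 36 were over 0.1. A library correlated best with its own number in 12 of 36, where chance would give 1 in 6. These values do not exclude a pairing. The labels name no pairs, so the main tests did not use the numbers as pairs. With the number as a replicate block, 20 members were called in NT + Stroke vs NT + Sham, 1 in HT + Stroke vs HT + Sham, 5 in HT + Stroke vs NT + Sham and 0 in the others.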
